A study of Homo sapiens with 6 samples.

Results

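A set of genes that write, copy, remove or read DNA methylation was followed in SW480 cells, an established line from a human colorectal tumour, after knockdown of MORC2, a chromatin-associated ATPase. They were chosen by name, by a rule that used no measured value but with earlier results of these data known, and were DNMT1, DNMT3A, DNMT3B, UHRF1, UHRF2, TET1, TET2, TET3, TDG and MBD2, 10 of the 56303 genes in the deposited table. All 10 passed the filter on low counts, and their counts ran from 276 to 20681 in a single library.

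In mammalian cells a methyl group is placed on cytosine, mostly where cytosine precedes guanine (a CpG). DNMT3A and DNMT3B set up new methylation, and DNMT1 copies it to the daughter strand after replication, guided by UHRF1, which binds hemimethylated CpGs. TET1, TET2 and TET3 oxidise methylcytosine, TDG excises the products further along this path, and MBD2 binds methylated CpGs and brings in the NuRD deacetylase complex. Colorectal cancers are known for loss of methylation over much of the genome together with gain at many CpG islands. The libraries measured RNA, so no methylation level, protein level or enzyme activity was measured.

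The comparison had 2 groups of 3 libraries each. The shCtrl group carried a lentiviral nonsilencing hairpin and the shMORC2 group a lentiviral hairpin against MORC2. According to the methods of the study both were stable clonal lines selected with puromycin, and both were grown in medium with serum and antibiotics. The number of clones and of hairpins behind each group was not given in the sources used here, so an effect of the line and an effect of MORC2 depletion cannot be told apart. The labels call the cells of the control libraries wild type, and no other genotype, time or dose was compared. The study describes the replicates of each group as independent experiments and does not say what was repeated, and the p-values measure the spread between these libraries.

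Total counts ran from 42092664 to 43434425 per library. MORC2 stood at 46.1, 46.4 and 48.8 CPM (counts scaled to a common library size, with TMM factors) in shCtrl replicates 1, 2 and 3 and at 35.0, 29.3 and 27.2 CPM in shMORC2, which is -0.63 on the log2 scale (edgeR adjusted p = 0.000216, SE 0.095). MORC2-AS1 lies antisense to MORC2 with 1616 shared exonic bases, at 24 to 59 counts. All 7 colon epithelial markers were detected, with a summed level of 19171 to 26167 CPM. Most of this sum was KRT8, with a mean of 15380 CPM in shCtrl. CDX2, at 579 to 1093 counts, was called higher (log2 fold change 0.47, edgeR adjusted p = 0.0158), although the groups overlapped. The other 6 were not called in the fit with the group alone. In a fit with the replicate number as a block, KRT19 was called lower (log2 fold change -0.27, edgeR adjusted p = 0.000103). CDH1 was called higher in that fit (log2 fold change 0.20, edgeR adjusted p = 0.00613). The 7 markers of leukocytes, fibroblasts, endothelium and hepatocytes summed to 28.1 to 30.3 CPM in shCtrl and 31.5 to 33.3 CPM in shMORC2. PTPRC was at 0 counts in 4 libraries and at 4 and 6 in the others, CD3E at 0 to 3 counts and COL1A2 at 0 to 10. COL1A1 held 355 to 458 counts and PECAM1 576 to 860, and neither was called in the fit with the group alone. PECAM1 was called higher with the block (log2 fold change 0.29, edgeR adjusted p = 0.00587). VWF, at 86 to 153 counts, was called higher (log2 fold change 0.54) and ALB, at 14 to 124 counts, was called lower (log2 fold change -2.23). The part of these differences in the results was not tested. In bulk RNA, fewer cells that express a gene and less of its RNA per cell cannot be told apart. Of 21005 genes tested with edgeR's quasi-likelihood test, 8301 (39.5%) had an adjusted p under 0.05 and were called.

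Of the 10 genes, 4 were called. DNMT3A rose in shMORC2, and DNMT3B, UHRF2 and TET1 fell, which made 1 higher and 3 lower beside 19.9% of all genes tested called higher and 19.6% called lower. The changes were modest, between 0.34 and 0.56 in size on the log2 scale. The other 6 were not called. Of these, UHRF1 and TDG were called (higher) in a fit that also used the replicate number as a block, and DNMT1, TET2, TET3 and MBD2 were called in neither fit. The share called, 40%, stood beside 39.5% of all genes tested, and the median log2 fold change of the 10 genes was -0.015 against -0.0056 over all genes tested. As a group, therefore, they were called about as often as other genes in these libraries. With the block 3 were called higher and 3 lower, together 6 of the 10, beside 24.4% and 24.5% of all genes tested in the same directions and 49.0% in either. In 5 of the 10 genes the CPM of the groups did not overlap, 2 higher and 3 lower in shMORC2. Over all genes tested this held for 25.1% in each direction and 50.2% in all.

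**Figure D1:**
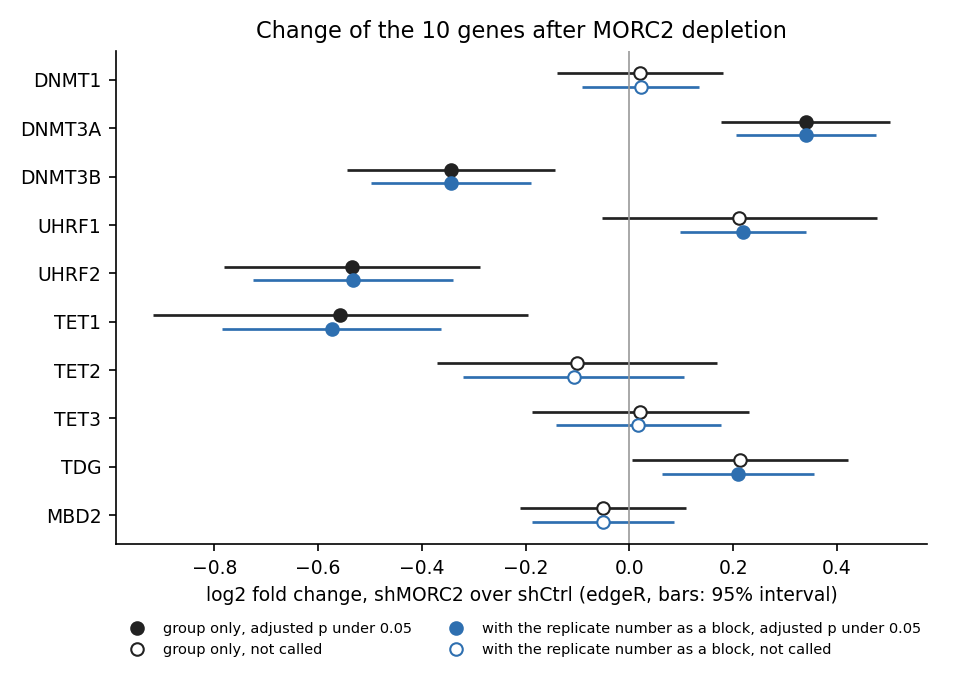
Log2 fold change of each of the 10 genes, shMORC2 over shCtrl, on the horizontal axis, from the edgeR fit with the group alone (black) and from the fit with the replicate number as a block (blue). Bars are 95% intervals from 3 libraries per group, and filled points have an adjusted p under 0.05. DNMT3A lies at 0.34 and DNMT3B, UHRF2 and TET1 at -0.34, -0.53 and -0.56, and UHRF1 and TDG are filled with the block alone.

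The levels differed widely between the genes. On the RPKM scale, which divides the counts by exon length and library total, the maintenance genes led in both groups. The order of genes on this scale depends on the exon lengths of the annotation. In shCtrl the mean level was 45.1 ± 3.72 RPKM for DNMT1 and 23.6 ± 4.90 RPKM for UHRF1 (SD, n = 3). MBD2 (7.03 ± 0.288 RPKM), DNMT3B (6.89 ± 0.726 RPKM) and TDG (5.86 ± 0.489 RPKM) came next. DNMT3A stood at 3.21 ± 0.156 RPKM and TET3 at 2.08 ± 0.0950 RPKM. UHRF2 (1.57 ± 0.201 RPKM), TET1 (1.29 ± 0.221 RPKM) and TET2 (0.639 ± 0.0588 RPKM) were the lowest. The libraries of neighbouring genes in this order overlapped for MBD2 and DNMT3B and for UHRF2 and TET1, and the gap between DNMT3B and TDG was narrow.

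In shMORC2 the order changed in the middle. DNMT1 (45.4 ± 1.87 RPKM) and UHRF1 (27.2 ± 4.11 RPKM) stayed first and second. TDG (6.76 ± 0.963 RPKM) and MBD2 (6.75 ± 0.261 RPKM) overlapped, and DNMT3B followed at 5.39 ± 0.486 RPKM, below every library of both. DNMT3A (4.04 ± 0.216 RPKM) stayed under DNMT3B and above TET3 (2.10 ± 0.2996 RPKM). UHRF2 (1.08 ± 0.122 RPKM), TET1 (0.876 ± 0.259 RPKM) and TET2 (0.593 ± 0.109 RPKM) overlapped from one gene to the next.

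**Figure D2:**
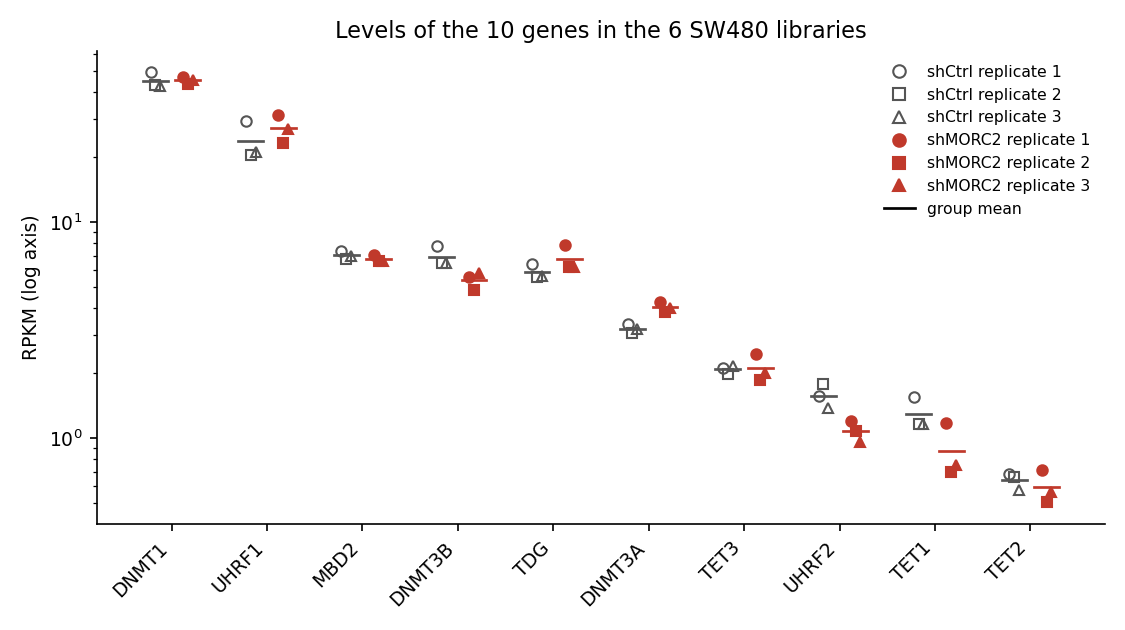
RPKM (log axis) of the 10 genes in each of the 6 libraries, shCtrl in grey and shMORC2 in red, with the marker giving the replicate number and the bar the group mean. DNMT1 and UHRF1 lie far above the rest in both groups, from 20.4 to 49.4 RPKM in single libraries of shCtrl, and TET2 lies lowest.

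Among the maintenance genes, DNMT1 (chr19:10133345-10231286, minus strand, coordinates of the deposited table, GRCh38) showed no detectable change. Its level was 472, 420 and 430 CPM in shCtrl replicates 1, 2 and 3 and 452, 434 and 453 CPM in shMORC2. The 3 shMORC2 libraries lay within the range of the shCtrl libraries. On the log2 scale the fold change was 0.02 (SE 0.074, 95% interval -0.14 to 0.18, edgeR adjusted p = 0.851). On the linear scale the interval ran from 0.907-fold to 1.13-fold. DNMT1 shares 69 exonic bases with S1PR2 on the same strand, which held 68 to 153 counts and is far less abundant than DNMT1.

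UHRF1 (chr19:4903080-4962154, plus strand), the partner that brings DNMT1 to newly replicated DNA, varied widely between replicates. It stood at 147, 105 and 112 CPM in shCtrl and at 159, 122 and 140 CPM in shMORC2. Replicate 1 was the highest library of its group in both, and the groups overlapped, with shCtrl replicate 1 above shMORC2 replicates 2 and 3. The log2 fold change was 0.21 (SE 0.12, 95% interval -0.05 to 0.48, edgeR adjusted p = 0.190). Between libraries of the same number UHRF1 was higher in shMORC2 in all 3 pairs, by 0.11, 0.22 and 0.33 on the log2 scale. The fit with the replicate number as a block put the difference at 0.22 (SE 0.060, edgeR adjusted p = 0.00279). Without shCtrl replicate 1, and with no block, it was 0.37 (edgeR adjusted p = 0.00911). With any other library left out it was 0.12 to 0.30 and not called (edgeR adjusted p from 0.109 to 0.536).

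UHRF2 (chr9:6413151-6507054, plus strand), the paralogue of UHRF1, which also binds modified CpGs, moved the other way. The 202 bases before its annotated exons are shown as the CpG-containing stretch of a gene that fell, with each CpG in capitals (chr9:6412949-6413150, plus strand, RefSeq, GRCh38.p14).
UHRF2: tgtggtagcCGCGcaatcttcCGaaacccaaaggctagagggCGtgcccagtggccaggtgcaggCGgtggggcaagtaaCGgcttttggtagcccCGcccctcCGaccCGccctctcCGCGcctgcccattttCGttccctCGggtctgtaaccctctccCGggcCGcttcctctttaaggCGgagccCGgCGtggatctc
UHRF2 was at 15.1, 17.5 and 13.9 CPM in shCtrl replicates 1, 2 and 3 and at 11.6, 10.9 and 9.58 CPM in shMORC2. Each shMORC2 library was below each shCtrl library. edgeR put the log2 fold change at -0.53 (SE 0.11, 95% interval -0.78 to -0.29, edgeR adjusted p = 0.00255), which left 69.0% of the shCtrl level. Its pseudogene copy UHRF2P1 held 0 to 2 counts.

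The share of UHRF2 in the summed RPKM of the UHRF pair was 5.05%, 7.99% and 6.08% in shCtrl and 3.67%, 4.43% and 3.42% in shMORC2. The ratio of UHRF2 to UHRF1 fell from 0.0683 ± 0.0171 to 0.0400 ± 0.00568 (SD, n = 3), a difference of -0.75 on the log2 scale without overlap between the groups. An exact two-sided permutation test of the 6 libraries, which with 3 against 3 cannot go below 0.1, gave p = 0.1, or 0.25 after Benjamini-Hochberg adjustment over the 5 ratios compared. The ratio of UHRF1 to DNMT1 was 0.521 ± 0.0632 in shCtrl and 0.597 ± 0.0663 in shMORC2, with overlapping libraries (exact permutation p = 0.3, adjusted p = 0.4).

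The de novo methyltransferases moved in opposite directions. DNMT3A (chr2:25227855-25342590, minus strand) has a CpG-dense start, and the 250 bases before its annotated start site are shown because it was the member that rose, with each CpG in capitals (chr2:25341926-25342175, minus strand, RefSeq, GRCh38.p14).
DNMT3A: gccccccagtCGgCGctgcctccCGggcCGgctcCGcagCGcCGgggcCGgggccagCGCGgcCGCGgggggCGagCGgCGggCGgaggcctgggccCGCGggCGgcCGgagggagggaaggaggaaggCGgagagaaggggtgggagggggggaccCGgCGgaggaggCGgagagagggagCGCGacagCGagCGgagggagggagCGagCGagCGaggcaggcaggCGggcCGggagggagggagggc
DNMT3A was at 39.5, 36.7 and 39.2 CPM in shCtrl replicates 1, 2 and 3 and at 50.2, 47.0 and 48.8 CPM in shMORC2. Each shMORC2 library was above each shCtrl library, and the spread within a group (SD 1.58 and 1.59 CPM) was small against the difference. The log2 fold change was 0.34 (SE 0.076, 95% interval 0.18 to 0.50, edgeR adjusted p = 0.00317), a 1.27-fold rise. The difference between libraries of the same number was 0.34, 0.36 and 0.32 on the log2 scale, the most even of the called members.

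DNMT3B (chr20:32762385-32809356, plus strand), the de novo enzyme that is often raised in colorectal tumours, stood at 34.9, 29.9 and 30.6 CPM in shCtrl and at 25.1, 22.9 and 27.1 CPM in shMORC2. The highest shMORC2 library (replicate 3) was still below the lowest shCtrl library (replicate 2). This was a log2 fold change of -0.34 (SE 0.093, 95% interval -0.54 to -0.14, edgeR adjusted p = 0.0102), which left 78.8% of the shCtrl level. Between libraries of the same number the difference was uneven, at -0.47, -0.38 and -0.17 on the log2 scale. Without shMORC2 replicate 2 the call was lost (log2 fold change -0.28, edgeR adjusted p = 0.0598).

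On the RPKM scale DNMT3B thus stayed the higher of the de novo pair, by a smaller margin. By reads the order was reversed. DNMT3A and DNMT3B had mean levels of 38.5 and 31.8 CPM in shCtrl, and of 48.7 and 25.0 CPM in shMORC2. The RPKM order rests on exon lengths of 12020 bases for DNMT3A and 4630 for DNMT3B, which are the same for both groups. Within a library the ratio of DNMT3B to DNMT3A in RPKM was 2.29, 2.12 and 2.02 in shCtrl replicates 1, 2 and 3 and 1.299, 1.26 and 1.44 in shMORC2. The groups did not overlap, and the difference was -0.68 on the log2 scale (exact two-sided permutation p = 0.1, the smallest possible, adjusted p = 0.25). This ratio is taken within a library, so the scaling of libraries cancels from it. In the summed RPKM of the DNMT genes, DNMT3B took 12.5% ± 0.268 in shCtrl and 9.82% ± 0.571 in shMORC2, and DNMT3A took 5.82% ± 0.246 and 7.36% ± 0.1301 (SD, n = 3). DNMT1 took 81.7% ± 0.109 and 82.8% ± 0.5002 (SD, n = 3).

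**Figure D3:**
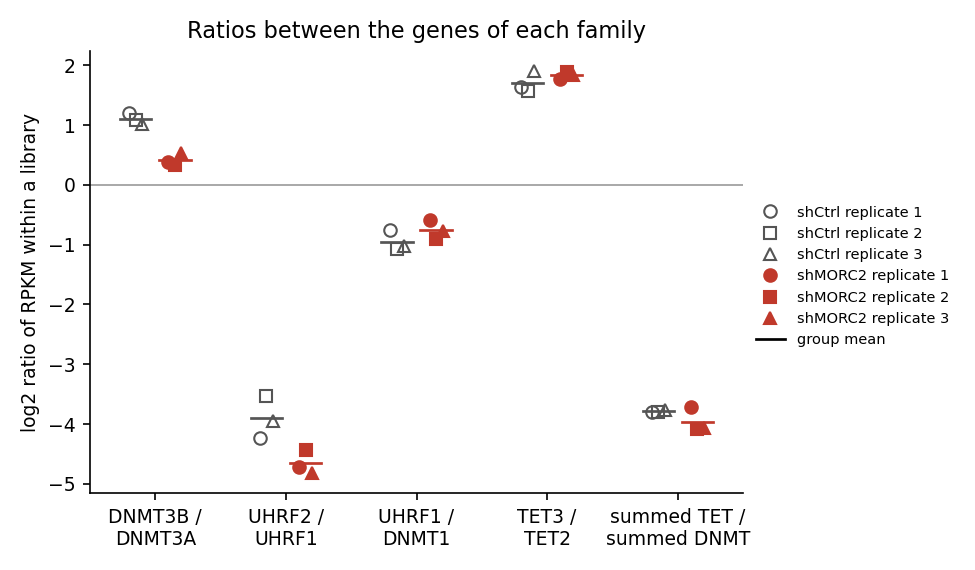
Log2 ratio of RPKM values within each library for 5 pairs or sums of the genes, shCtrl in grey and shMORC2 in red, with the bar at the group mean. The groups do not overlap for DNMT3B to DNMT3A (difference -0.68) and for UHRF2 to UHRF1 (difference -0.75), and overlap for the other ratios.

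Of the TET dioxygenases, TET1 was the member that fell. The 250 bases before the start site of TET1 (gene body chr10:68560656-68694482 in the deposited table, plus strand) are shown for comparison with DNMT3A, with each CpG in capitals (chr10:68560087-68560336, plus strand, RefSeq, GRCh38.p14).
TET1: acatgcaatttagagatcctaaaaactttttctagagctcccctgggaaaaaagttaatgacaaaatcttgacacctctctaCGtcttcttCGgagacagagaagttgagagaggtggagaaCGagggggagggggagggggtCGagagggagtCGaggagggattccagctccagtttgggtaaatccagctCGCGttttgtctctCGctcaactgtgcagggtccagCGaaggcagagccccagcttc
TET1 was at 14.03, 10.8 and 11.1 CPM in shCtrl replicates 1, 2 and 3 and at 10.7, 6.63 and 7.09 CPM in shMORC2. Replicate 1 was the highest library of both groups, and the groups were separated by a narrow gap, with shMORC2 replicate 1 just under shCtrl replicate 2. The log2 fold change was -0.56 (SE 0.17, 95% interval -0.92 to -0.20, edgeR adjusted p = 0.0181), which left 68.0% of the shCtrl level. TET1 was lower in shMORC2 in each of the same-numbered pairs, by -0.40, -0.70 and -0.64 on the log2 scale. The call was lost without shCtrl replicate 1 (edgeR adjusted p = 0.0553), without shMORC2 replicate 2 (0.0963) and without shMORC2 replicate 3 (0.0964), with log2 fold changes of -0.43, -0.43 and -0.46. The pseudogene TET1P1 was at 0 counts in all 6 libraries.

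TET2 (chr4:105145875-105279816, plus strand) was the lowest member on the RPKM scale. It stood at 11.0, 10.8 and 9.65 CPM in shCtrl and at 11.5, 8.46 and 9.37 CPM in shMORC2. The groups overlapped (log2 fold change -0.10, 95% interval -0.37 to 0.17, edgeR adjusted p = 0.555). TET3 (chr2:73986404-74108176, plus strand), the most abundant TET gene here, stood at 25.4, 24.1 and 26.9 CPM in shCtrl and at 29.3, 23.3 and 25.0 CPM in shMORC2. The groups overlapped again (log2 fold change 0.02, 95% interval -0.19 to 0.23, edgeR adjusted p = 0.881), and the sign of this value turned when shCtrl replicate 2 or shMORC2 replicate 1 was left out.

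Within the summed RPKM of the TET genes, TET1 took 32.1% ± 3.02 in shCtrl and 24.2% ± 2.51 in shMORC2 (SD, n = 3). TET3 took 51.9% ± 3.26 and 59.2% ± 2.43, and TET2 15.9% ± 1.34 and 16.6% ± 0.247. The ratio of TET3 to TET2 was 3.28 ± 0.411 in shCtrl and 3.56 ± 0.142 in shMORC2, with overlap (exact permutation p = 0.4, adjusted p = 0.4). The summed TET level was 0.0727 ± 0.00108 of the summed DNMT level in shCtrl and 0.0649 ± 0.00958 of it in shMORC2. This ratio was nearly the same in the 3 shCtrl libraries and spread to both sides of them in shMORC2, with replicate 1 above and replicates 2 and 3 below (exact permutation p = 0.4, adjusted p = 0.4).

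TDG (chr12:103965804-103988874, plus strand), the glycosylase that cuts out oxidised methylcytosine, stood at 30.7, 27.1 and 28.1 CPM in shCtrl and at 37.8, 31.1 and 30.7 CPM in shMORC2. The groups did not overlap, but only by a small margin, since shMORC2 replicate 3 lay at 30.74 CPM and shCtrl replicate 1 at 30.71 CPM. The log2 fold change was 0.21 (SE 0.097, 95% interval 0.005 to 0.42, edgeR adjusted p = 0.0963), so it was not called although the interval for this gene alone left out 0. With the replicate number as a block it was called, with a difference of 0.21 on the log2 scale (edgeR adjusted p = 0.0160, SE 0.072). A processed copy, TDGP1, held 2 to 4 counts in shCtrl and 6 to 16 in shMORC2.

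MBD2 (chr18:54151601-54224788, minus strand), the reader that carries NuRD to methylated CpGs, had the smallest SD relative to its mean of the 10 genes in both groups. It stood at 41.5, 39.1 and 41.6 CPM in shCtrl and at 40.1, 38.9 and 39.0 CPM in shMORC2. The groups overlapped, and the log2 fold change was -0.05 (SE 0.074, 95% interval -0.21 to 0.11, edgeR adjusted p = 0.623).

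**Figure D4:**
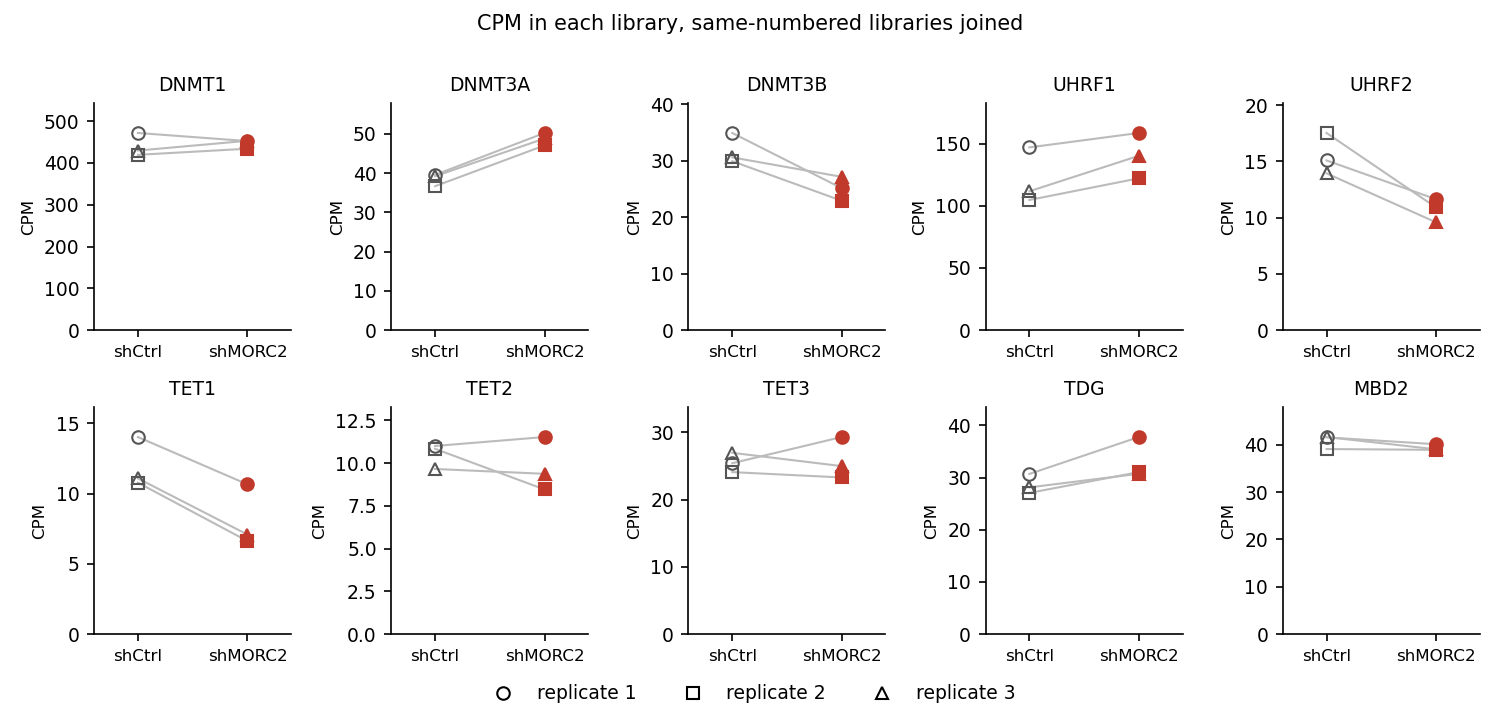
CPM of each of the 10 genes (vertical axes from 0) in the 6 libraries, with the libraries of the same replicate number joined by a line. All 3 lines rise for DNMT3A, UHRF1 and TDG and fall for DNMT3B, UHRF2, TET1 and MBD2, and replicate 1 is the highest library of both groups for DNMT3A, UHRF1, TET1, TET2 and TDG.

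Replicate 1 was the highest library of both groups for 5 of the 10 genes, namely DNMT3A, UHRF1, TET1, TET2 and TDG. Among all genes tested this held for 18.8%, and among 16 genes listed as replication genes, which include the proliferation marker MKI67, for 13. UHRF1 thus had its highest library in the same replicate as most genes of DNA replication. The part of this difference between replicates in the results was not tested, and the values given with the replicate number as a block are those within same-numbered libraries.

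The genes whose log2 CPM followed UHRF1 most closely over the 6 libraries, among 14334 genes averaging 100 counts or more, were HMGB1P37 (Pearson r 0.994), FBXL12 (0.993), ANAPC13 (0.992), NSUN2 (0.990) and ERI1 (0.989). For DNMT1 they were LNP1 (Pearson r 0.990), TSR1 (0.983), MRPS28 (0.970), WDR77 (0.969) and ATP5F1 (0.968). These 6 points share libraries and the scaling, and the highest of 14334 correlations over 6 libraries is large by selection alone.

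The stretches before the start sites differed in CpG content. In the 250 bases upstream of the RefSeq start (MANE transcript), the dinucleotide CG, which reads the same on both strands, occurred 33 times for DNMT3A, 23 times for UHRF2 and 9 times for TET1. Of 35116 windows of the same length, 8.15% held at least 33, 25.8% at least 23 and 54.1% at least 9, and the median was 11. Among members that were not called without the block, the window held 37 CpGs for TET3, 34 for TET2, 28 for UHRF1, 22 for TDG and 21 each for DNMT1 and MBD2. Some of these windows include bases of annotated exons. The longest stretch outside exons was 202 bases for UHRF2 (18 CpGs), 179 for UHRF1, 113 for TDG, 68 for DNMT1 and 0 for TET2. It was the full 250 bases for DNMT3A, TET1, TET3 and MBD2. DNMT3B, which fell, had no window at its MANE start. Among the 9 members with a window TET1 had the fewest CpGs, and DNMT3A and UHRF2 lay among members that were not called. These are too few genes to read an order by direction. These are letters of the reference sequence, and their methylation in SW480 was not measured here.

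In a list of methyltransferase partners and related chromatin genes, more genes were lower than higher. This list, like the others below, was compiled for this comparison from known functions, and its share is read beside the 39.5% of all genes tested. Of 13 genes listed 12 were tested, 7 fell, 0 rose and 5 were not called, with a median log2 fold change of -0.28. Over all genes tested 19.6% were called lower and 19.9% higher. At an unadjusted edgeR p under 0.05, 7 were lower and 1 higher. DESeq2 called 7 lower and 0 higher, and limma on RPKM called 3 to 6 lower and 0 higher. CDCA7L, a relative of the chromatin factor CDCA7, fell most, from 104 ± 5.56 to 66.6 ± 2.87 CPM (SD, n = 3; log2 fold change -0.65, SE 0.076, edgeR adjusted p = 2.90e-05). SMCHD1, needed for methylation of the inactive X chromosome, stood at 71.0 ± 4.08 and 49.99 ± 11.1 CPM (log2 fold change -0.51, SE 0.12, edgeR adjusted p = 0.00569). The other genes that fell, named after their values were seen to complete the count, were ZBTB24, CDCA7, USP7, SETD2 and NSD2. The log2 fold changes of ZBTB24 and CDCA7 were -0.43 and -0.30. USP7, a deubiquitinase that binds DNMT1 and UHRF1, had -0.35. HELLS, the remodeller that works with CDCA7, was not called (log2 fold change 0.09, edgeR adjusted p = 0.593). CDCA7L and SMCHD1 share 833 and 49 exonic bases with a gene on the opposite strand, and ZBTB24 shares 305 with MICAL1 on the same strand.

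A further list held 11 other readers of methylated DNA and proteins related to them, all tested. Of these 1 rose, 4 fell and 6 were not called (median log2 fold change -0.14). MBD3, MBD5, MBD6, SETDB1 and SETDB2 stand in it as related proteins, and no binding to methylated DNA was measured here. ZBTB38, a zinc finger protein that binds methylated DNA, fell from 69.6 ± 6.75 to 40.8 ± 3.57 CPM (log2 fold change -0.77, SE 0.093, edgeR adjusted p = 3.63e-05). MBD4, a glycosylase that repairs deaminated methylcytosine, fell from 34.8 ± 1.27 to 22.2 ± 0.719 CPM (log2 fold change -0.65, SE 0.079, edgeR adjusted p = 3.87e-05). MBD5 rose (log2 fold change 0.38, SE 0.11, edgeR adjusted p = 0.0167), a call that was lost without shCtrl replicate 2 (0.0551), shCtrl replicate 3 (0.0708) or shMORC2 replicate 3 (0.0676). MBD4 and MBD5 overlap IFT122 and ORC4 on the opposite strand by 144 and 157 exonic bases.

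The 13 NuRD subunits, the complex that MBD2 recruits, were split. There were 2 that rose, 4 that fell and 7 not called, with a median log2 fold change of -0.0008. With the replicate number as a block 6 rose and 4 fell, beside 49.0% of all genes tested called in that fit. RBBP4, a histone-binding subunit, rose from 101 ± 8.97 to 142 ± 12.0 CPM (log2 fold change 0.49, edgeR adjusted p = 0.000713), and CDK2AP1 rose as well (log2 fold change 0.53, edgeR adjusted p = 0.00154). MTA1, a scaffold subunit, fell from 157 ± 11.7 to 109 ± 3.89 CPM (log2 fold change -0.53, edgeR adjusted p = 0.000172), and the remodeller CHD3 fell too (log2 fold change -0.37, edgeR adjusted p = 0.001). RBBP4 shares 1706 exonic bases with SYNC on the opposite strand, MTA1 shares 262 with TEX22 and CDK2AP1 513 with an uncharacterised gene, both on the same strand.

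Of 18 tested genes of the demethylation path beyond TET and TDG, 3 rose, 3 fell and 12 were not called (median log2 fold change -0.09). OGT, which adds N-acetylglucosamine to proteins and binds TET enzymes, fell from 206 ± 15.5 to 129 ± 23.1 CPM (log2 fold change -0.68, SE 0.11, edgeR adjusted p = 0.00038). The repair ligase LIG3 fell (log2 fold change -0.30, edgeR adjusted p = 0.0106) and shares 3754 exonic bases with RFFL on the opposite strand. The repair polymerase POLB (log2 fold change 0.36, edgeR adjusted p = 0.0214) and IDH1 (log2 fold change 0.24, edgeR adjusted p = 0.0178), which makes the cofactor of the TET enzymes, rose. The call of POLB was lost without shCtrl replicate 2 or 3 or without shMORC2 replicate 2 or 3 (edgeR adjusted p from 0.0524 to 0.101). The call of IDH1 was lost without shCtrl replicate 2 (0.0639) or shMORC2 replicate 2 (0.0885).

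In the methionine cycle, which supplies the methyl donor, 16 genes were tested, of which 1 rose, 5 fell and 10 were not called (median log2 fold change -0.05). MTR, the methionine synthase, fell from 42.1 ± 6.99 to 26.8 ± 3.01 CPM (log2 fold change -0.65, SE 0.12, edgeR adjusted p = 0.000718). MTRR, the reductase that keeps it active, fell from 21.8 ± 2.03 to 14.5 ± 0.838 CPM (log2 fold change -0.58, SE 0.097, edgeR adjusted p = 0.000429). MAT2B, the regulatory subunit of methionine adenosyltransferase, rose from 19.9 ± 0.528 to 27.0 ± 1.63 CPM (log2 fold change 0.44, SE 0.084, edgeR adjusted p = 0.0011).

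Of the 16 replication genes 3 rose, 1 fell and 12 were not called (median log2 fold change 0.06). With the replicate number as a block 6 rose and 4 fell, again beside 49.0% of all genes tested. RRM2, a subunit of ribonucleotide reductase, rose from 54.4 ± 5.25 to 81.8 ± 5.12 CPM (log2 fold change 0.59, SE 0.087, edgeR adjusted p = 0.000178). The licensing factors CDC6 (log2 fold change 0.39, edgeR adjusted p = 0.0356) and CDT1 (log2 fold change -0.42, edgeR adjusted p = 0.0156) were called in opposite directions, although the libraries of the groups overlapped for both. The call of CDC6 was lost without shCtrl replicate 2 or 3 or shMORC2 replicate 1 or 3 (edgeR adjusted p from 0.0873 to 0.143). That of CDT1 was lost without shCtrl replicate 2 or 3 or shMORC2 replicate 2 (0.0673 to 0.0809). Over all 14 alternative settings, listed in a closing section, CDC6 lost its call in 8 and CDT1 in 4. PCNA, the clamp on which DNMT1 rides, was not called (log2 fold change 0.19, edgeR adjusted p = 0.341), but was called higher with the replicate number as a block (0.20, edgeR adjusted p = 0.0110). With the block, methyltransferase partners and related genes had 1 called higher and 8 lower. Readers and related proteins had 2 and 5, genes of the demethylation path 4 and 5, and those of the methionine cycle 2 and 5.

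**Figure D5:**
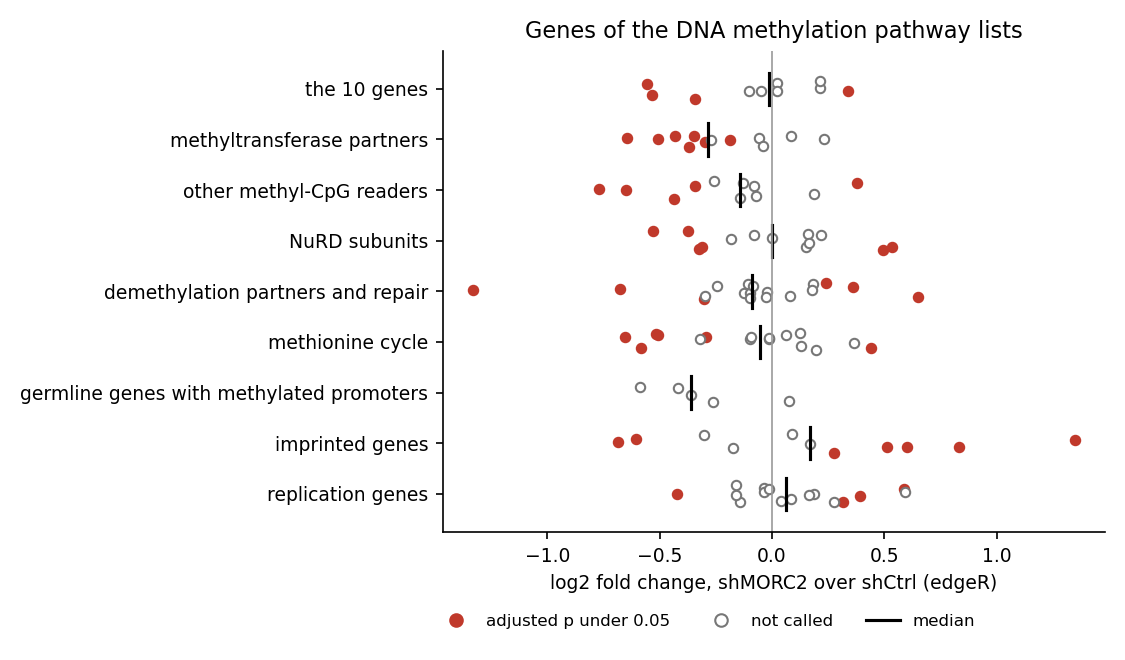
Log2 fold change, shMORC2 over shCtrl, of the tested genes of the 10-gene group and of 8 lists of related genes, with called genes (edgeR adjusted p under 0.05) in red and the median of each list as a bar. The medians run from -0.36 for germline genes to 0.17 for imprinted genes, and that of methyltransferase partners is -0.28.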

How the data were processed

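Polyadenylated RNA of 6 SW480 libraries, 3 shCtrl and 3 shMORC2, was sequenced from stranded libraries with molecular identifiers. The authors deposited raw counts per gene symbol, and RPKM values computed from them: for all 36613 genes with an RPKM value, it equalled the count divided by exon length and library total within a relative tolerance of 1e-06. The submitters' processing notes name Trimmomatic 0.36, STAR 2.5.3a, featureCounts, Subread 1.5.1, edgeR 3.12.1 and GRCh38. The annotation release, the strand setting and the collapsing of identifiers were not given in the sources used here. Without the strand setting, reads of a gene and of its antisense partner cannot be told apart. The deposited splicing tables were not used here, and 0 columns came from outside the series.

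Counts were tested with edgeR 4.0.16 (R 4.3.3), by its quasi-likelihood test with the group alone as a term, after filterByExpr and TMM scaling, and p-values of the 21005 genes were adjusted by the Benjamini-Hochberg method. The SE was the size of the log2 fold change divided by the square root of F. Ratios of RPKM within a library were compared by an exact permutation test over the 20 assignments of libraries (scipy 1.17.1). Depth was 42092664 to 43434425 counts per library, and no 2 libraries of a group agreed within sampling noise (chi-square per degree of freedom 6.35 to 21.5).

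Deviations from the group means correlated between same-numbered libraries by 0.215, 0.111 and 0.102. On these values alone, the numbers were used to pair the libraries in the block fit and in the same-numbered differences. Calls with the block thus rest on a pairing read from the same data. The main fit and the exact permutation tests did not use it. The labels do not say what a number stands for.

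The 10 genes, the lists of related genes and the tests were chosen with earlier results of these data known. Named genes were MORC2, the 10 genes, for each list up to 2 called genes at each end of the log2 fold changes that averaged 100 counts or more, and the 5 genes most correlated with DNMT1 and with UHRF1. Germline and imprinted genes stand in the closing section. NSD2 and PCLAF appear in the deposited table as WHSC1 and KIAA0101. Upstream sequences came from RefSeq (GRCh38.p14): all 10 genes had an entry, 9 of them at the MANE start, and only bases outside annotated exons are printed.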

Additional observations from a re-analysis of the deposited data

How the results depend on the processing

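Each result was recomputed with each library left out in turn, with replicate number as a block term, with DESeq2 1.42.0, with plain library sizes, with a filter of 1 count in any library or of 1 CPM in 3 libraries, and with limma 3.58.1 on RPKM (pseudocount 1 or 0.1 where the average RPKM reached 1, and pseudocount 1 without that filter). MORC2 was lower and called in all 14 (log2 fold change -0.74 to -0.55), and DNMT3A was higher and called in all 14 (0.26 to 0.37). The 10 genes gave 123 values with direction and call kept, 9 that lost the call, 3 that gained it and 3 with the sign turned. With a library left out, DNMT1 ran from -0.016 without shCtrl replicate 2 to 0.071 without shCtrl replicate 1. TET3 ran from -0.076 without shMORC2 replicate 1 to 0.093 without shMORC2 replicate 2, and was at -0.020 without shCtrl replicate 2. TET1 lost its call in 6 of 14 (edgeR and limma adjusted p from 2.64e-05 to 0.202), DNMT3B in 2 and UHRF2 in 1 (adjusted p = 0.0812). TET2, with a mean RPKM under 1, was not tested in the filtered limma fits. Limma without the filter used all 36613 genes with an RPKM value. It called 5454 of them, 1 of the 10 (DNMT3A) and 20 of the list genes. The main counts were 8301 of 21005 genes tested, 4 and 41, and the cause of the difference was not tested. With a library left out, 6268 to 8433 genes were called, 2 to 4 of the 10 (2 without shMORC2 replicate 2, DNMT3A and UHRF2) and 30 to 44 of the list genes. The number of genes tested in each of these fits is not given here, so no share stands beside these counts. For the named genes of the lists, where these settings were tried after their values were seen, 287 values kept direction and call, 29 lost the call and 0 turned sign.

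With the replicate number as a block, 10287 genes were called (49.0% of those tested), 6 of the 10 and 60 of the list genes. UHRF1 (log2 fold change 0.22) and TDG (0.21) gained a call, and no other call among the 10 changed. The ratios kept their sign in all 8 alternatives. As means of the same-numbered differences they were -0.68 for DNMT3B to DNMT3A and -0.75 for UHRF2 to UHRF1, with an exact sign-change p of 0.25, the smallest that 3 pairs allow. In the fit with the group alone TET1 and TET2, the members with the fewest reads, had the widest intervals (SE 0.17 and 0.13). UHRF1, which averaged 5590 counts, had an SE of 0.12, so the width did not follow read number alone. The permutation tests are limited to p = 0.1 by 3 libraries per group.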

Other observations

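Genes of kinds that are often controlled by DNA methylation were read beside the enzymes. Imprinted genes are expressed from the allele of a single parent. Many germline genes are held silent in somatic cells by promoter methylation, which was not measured here for those listed. Of 18 imprinted genes, 11 were tested, 5 rose, 2 fell and 4 were not called, beside 39.5% of all genes tested. IGF2, a growth factor gene, was at 470, 566 and 763 CPM in shCtrl replicates 1, 2 and 3 and at 1201, 1608 and 1769 CPM in shMORC2. Each shMORC2 library was above each shCtrl library (log2 fold change 1.35, SE 0.16, edgeR adjusted p = 3.62e-05). IGF2 shares 998 exonic bases with INS-IGF2 on the same strand, which held 635 to 1568 counts. PLAGL1, a zinc finger factor, rose from 6.92 ± 0.951 to 12.3 ± 1.85 CPM (SD, n = 3; log2 fold change 0.83, edgeR adjusted p = 0.000365) and shares 289 exonic bases with HYMAI on the same strand.

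KCNQ1OT1, a noncoding RNA, fell from 43.7 ± 5.53 to 28.7 ± 6.05 CPM (SD, n = 3; log2 fold change -0.60, edgeR adjusted p = 0.00312) and overlaps KCNQ1 on the opposite strand. L3MBTL1 fell (log2 fold change -0.69, edgeR adjusted p = 0.00858), a call that was lost without shMORC2 replicate 3 (0.0525). Of 17 germline genes, 9 had at most 3 counts in each of the 6 libraries and 5 were tested. With edgeR's quasi-likelihood test 0 of these 5 were called, and 1 had an unadjusted p under 0.05, PIWIL1. DESeq2 and limma on RPKM called 0. With the replicate number as a block, or with genes of at least 1 count kept, 1 fell. PIWIL1, a germline Argonaute protein, had 4.06, 3.90 and 4.38 CPM in shCtrl and 3.22, 3.29 and 3.10 CPM in shMORC2 (log2 fold change -0.36, edgeR adjusted p = 0.0599). The summed level of the 17 germline genes was 5.79 to 7.29 CPM in shCtrl and 4.72 to 5.30 CPM in shMORC2.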
